A study of Caenorhabditis elegans with 11 samples.

Results

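The genes described here are 9 Caenorhabditis elegans genes that serve the making or uptake of protective solutes and survival of water loss. They were chosen by name as the glycerol, trehalose, inositol transporter and LEA protein genes: gpdh-1, gpdh-2, tps-1, tps-2, gob-1, hmit-1.1, hmit-1.2, hmit-1.3 and lea-1. All 9 were found among the 47084 genes counted, and all 9 passed the filter on low counts that left 14361 genes for testing. RNA of whole worms on day 1 of adulthood was sequenced, from about 1000 animals per library grown at 20 °C on OP50 bacteria.

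The DAF-16 2KR line (2KR, 3 libraries) was daf-16(mu86) with the array iqIs85, in which the daf-16 promoter drives DAF-16 fused to GFP with 2 lysines changed to arginine (K248 + 253R). The DAF-16 WT line (WT, 3 libraries) was daf-16(mu86) with iqIs79, the same construct without the changes. Both arrays also carried pRF4, a marker plasmid with a dominant rol-6 allele. N2 (2 libraries) is the wild-type strain, with its own daf-16 and no array. DAF-16 is the FOXO transcription factor of the insulin pathway, and the series sets out to compare its wild-type and hypoacetylated forms. Each construct was represented by 1 line, so the lysine changes cannot be told apart from other differences between the lines, and N2 differs from both lines in the mu86 deletion, the array and the marker together. The libraries are described as biological repeats. The 3 libraries of a further line, 4KR, were left out because the counts in them did not go with the gene names: their log counts correlated at 0.372 to 0.388 with those of the other 8 libraries, against 0.994 to 0.999 among those 8.

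Worms in a hypertonic or drying environment accumulate small organic solutes that hold water and stabilise proteins and membranes. Glycerol is the main osmolyte of salt-stressed C. elegans and is made from a glycolytic intermediate by a dehydrogenase and a phosphatase. Trehalose, a disaccharide of glucose, builds up in dauer larvae before desiccation, and LEA proteins are disordered, hydrophilic proteins first known from drying plant seeds. Insulin pathway mutants in which DAF-16 is active are known to be resistant to osmotic stress.

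The total count of a library ran between 21947014 and 30810301. As a check of the labels, daf-16 stood at 214, 289 and 234 CPM (the count scaled to library size by the TMM method) in 2KR, at 399.9, 452 and 400.4 CPM in WT, and at 159.6 and 145 CPM in N2. The rol-6 marker had 122 to 163 CPM in 2KR, 57.8 to 73.1 CPM in WT and 0.093 to 0.13 CPM in N2. Both genes thus differed in level between the lines, daf-16 in the direction opposite to rol-6. Replicate 2 of WT and of 2KR differed from replicates 1 and 3 in some of the genes below, and results that changed most without those libraries are given with and without them. Leaving out replicate 2 of both lines together was a choice made after seeing the data.

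Between 2KR and WT, 0 of the 9 genes passed edgeR's quasi-likelihood test at a Benjamini-Hochberg adjusted p under 0.05, where 0.244% of all genes tested did (35 of 14361). At an unadjusted p under 0.05 it was 1 of the 9, hmit-1.1, and 945 of all genes. DESeq2 also called 0 of the 9, and 2 of them had an unadjusted p under 0.05. With the replicate number as a block, 221 genes passed (1.54%), again with none of the 9 among them. Under the block 5 of the 9 (gpdh-2, tps-1, tps-2, hmit-1.1 and lea-1) and 1823 of all genes had an unadjusted p under 0.05, and all 5 were lower in 2KR. The repeat names in the file headers place N2 replicate 2 differently from its label. With those names as the block, lea-1 was above that cut (edgeR unadjusted p = 0.0576). The others of the 5 stayed under it, as did 2012 of all genes. The median log2 fold change of 2KR over WT was -0.09 over the 9 genes and -0.004 over all genes.

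Against N2, 2 of the 9 genes fell in WT and the same 2 fell in 2KR: lea-1, the LEA protein gene, and hmit-1.1, an inositol transporter gene. Among all genes 4.07% were called in WT against N2 (2.21% lower, 1.86% higher), and 7.76% in 2KR against N2 (4.0% lower, 3.76% higher). The median log2 fold change of the 9 genes was -0.08 in WT over N2 and -0.15 in 2KR over N2, against 0.007 over all genes in each. No gene of the 9 rose in either line. These 2 comparisons share the N2 libraries, so they are not independent of each other.

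Of the tissue markers, only the intestinal ones differed in summed level from N2 in both lines without overlap. The sums of every other tissue overlapped with N2 in at least 1 line. The summed level of intestinal markers was 738 to 792 CPM in 2KR, 695 to 772 CPM in WT and 615 to 622 CPM in N2, with act-5 and ifb-2, 2 of the 5 tested, called higher in each line than in N2. Another, opt-2, was not matched by that name. Hypodermal markers summed to 1053 to 1147 CPM in 2KR, 895 to 1027 CPM in WT and 946 to 1003 CPM in N2, with 0 of 5 called. The log2 fold changes of these markers ran from -0.11 to 1.36 in 2KR over WT, -0.43 to 1.11 in WT over N2 and -0.36 to 2.47 in 2KR over N2. Oocyte and embryo markers summed to 3745 to 4367 CPM in 2KR, 4258 to 4608 CPM in WT and 4376 to 4631 CPM in N2, and 1 of the 4 was called lower in 2KR than in N2. Of the muscle and sperm markers 0 of 4 each were called. The muscle markers summed to 1290 to 2004 CPM in 2KR, 1413.5 to 1889 CPM in WT and 1252 to 1615 CPM in N2. Their log2 fold changes were between 0.14 and 0.66 in the lines over N2. The sperm markers summed to 2.45 to 5.72 CPM in 2KR, 2.88 to 8.33 CPM in WT and 5.93 to 7.71 CPM in N2. Their median log2 fold change was -0.94 in 2KR over N2 and -0.44 in WT over N2. Germline and neuronal markers were called in no comparison. The neuronal markers summed to 164 to 169 CPM in 2KR, 172 to 180 CPM in WT and 166 to 169 CPM in N2, so WT lay above 2KR and N2 without overlap. The germline sums overlapped between all groups. In bulk RNA fewer cells of a type and less RNA per cell cannot be told apart, and the part of these marker levels in the results was not tested.

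**Figure D1:**
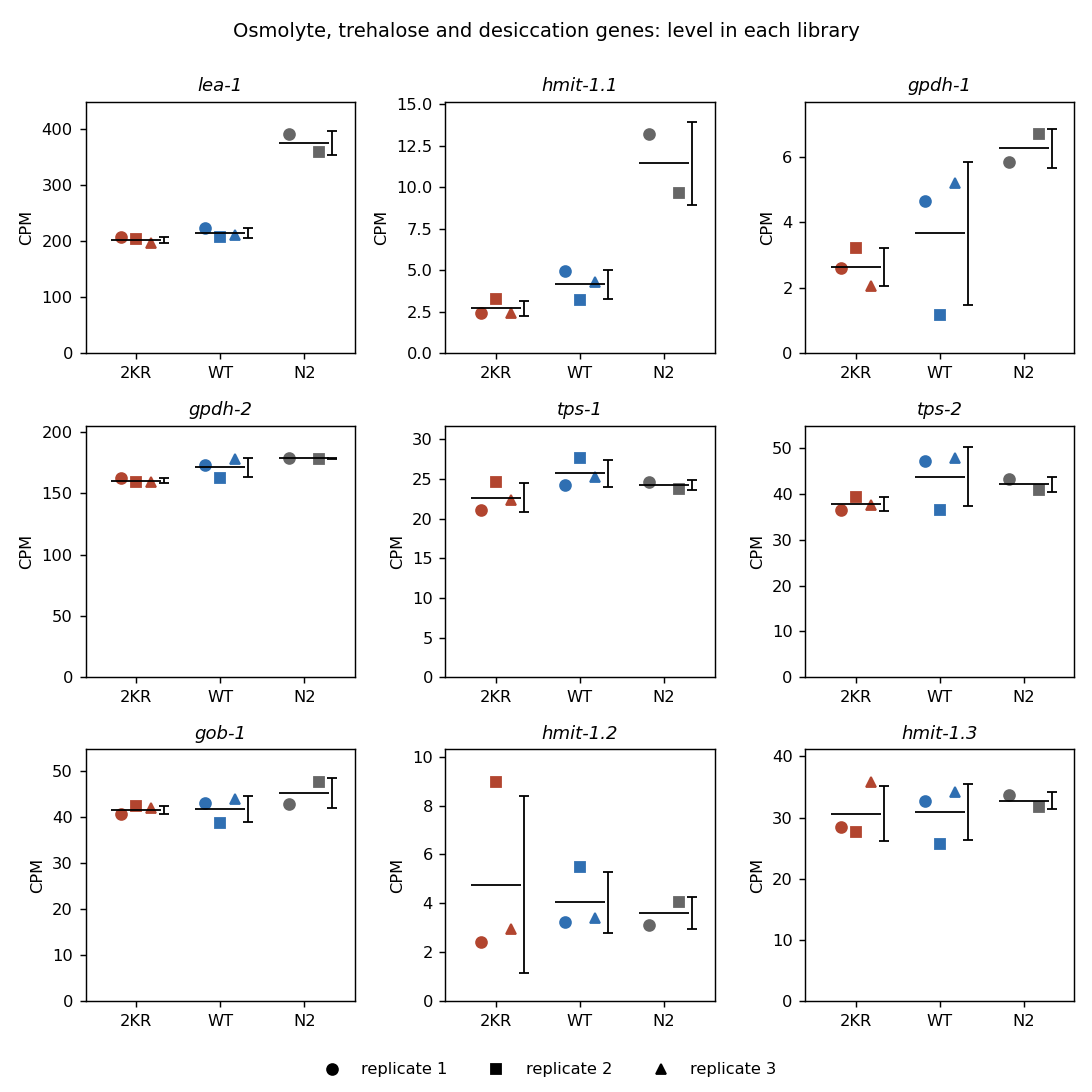
Level of each of the 9 genes in CPM (linear axis from 0) in every library of 2KR, WT and N2. Points are libraries, their shape gives the replicate number, and lines and bars are the mean and SD; lea-1 and hmit-1.1 are lower in every 2KR and WT library than in both N2 libraries, and gpdh-1 is lowest in WT replicate 2.

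lea-1 (WBGene00002263, chromosome V 10011923 to 10028168, plus strand, in the WBcel235 annotation) encodes a group 3 LEA protein required for desiccation tolerance. Its level was 208, 204 and 197 CPM in 2KR, 224, 208 and 212 CPM in WT, and 391 and 360.0 CPM in N2. The 6 libraries of the lines lay close together, and both N2 libraries lay far above all of them. In WT the mean was 215 ± 8.8 CPM (SD, n = 3), against 376 ± 22.0 CPM in N2 (SD, n = 2), which is 1.75-fold lower (log2 fold change -0.81 ± 0.058 SE, edgeR quasi-likelihood adjusted p = 5.6e-05). In 2KR the mean was 203 ± 5.4 CPM (SD, n = 3), 1.85-fold lower than in N2 (log2 fold change -0.89 ± 0.058 SE, edgeR quasi-likelihood adjusted p = 2.33e-05). Both calls were kept in every alternative that was run, with adjusted p up to 0.00158 in WT and 0.000734 in 2KR. Between 2KR and WT the libraries ran side by side, the ranges overlapped, and the log2 fold change was -0.08 with a 95% interval of -0.20 to 0.04 (edgeR adjusted p = 0.888). On the linear scale the interval ran between 0.871 and 1.03 times the WT level. Paired by replicate number, 2KR was lower than WT in every pair. The share of all genes that were lower in every pair was not counted. With the replicate block the 95% interval was -0.16 to -0.0003 (edgeR adjusted p = 0.392), which excluded 0 only before adjustment over all genes. With the repeat names in the file headers as the block, the edgeR unadjusted p of lea-1 was 0.0576 (adjusted p = 0.375).

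lea-1 is a long gene with 17 annotated transcripts, and the counts do not say which of them changed. It overlaps the end of acl-2 on the opposite strand. The acl-2 level stayed within 47.5 to 56.9 CPM in 2KR, 47.4 to 51.3 CPM in WT and 48.1 to 48.3 CPM in N2, so it did not follow the step seen in lea-1. Of 17 other genes tested within 50 kb of lea-1, 0 were called in WT against N2 and 1, unc-41, was higher in 2KR against N2.

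hmit-1.1 (WBGene00013073, chromosome V 18516789 to 18523875, plus strand) encodes a proton-coupled myo-inositol transporter, and in C. elegans its transcript is known to be induced by hypertonic stress. It had 2.42, 3.25 and 2.45 CPM in 2KR, 4.98, 3.22 and 4.28 CPM in WT, and 13.2 and 9.68 CPM in N2. Every library of both lines was below both N2 libraries. Relative to N2, hmit-1.1 was 2.74-fold lower in WT (log2 fold change -1.46 ± 0.21 SE, edgeR quasi-likelihood adjusted p = 0.00407) and 4.22-fold lower in 2KR (log2 fold change -2.08 ± 0.21 SE, adjusted p = 0.000567). The 2KR call was kept in every alternative, while the WT call was lost without N2 replicate 1 (log2 fold change -1.21, edgeR adjusted p = 0.0834). Its counts were small, between 69 and 282 reads per library.

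In 2KR, hmit-1.1 averaged 2.71 ± 0.47 CPM, against 4.16 ± 0.88 CPM in WT (SD, n = 3 each). The ranges overlapped only through replicate 2, in which 2KR had its highest and WT its lowest level. The log2 fold change of 2KR over WT was -0.62 ± 0.20 SE, with an edgeR quasi-likelihood adjusted p of 0.527 over all genes. Without replicate 2 of both lines, a choice made after seeing the data, it was -0.93 (edgeR adjusted p = 0.0745).

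The other inositol transporter genes of the family did not follow hmit-1.1. hmit-1.2 (WBGene00013074, chromosome V 18524760 to 18529156) starts 884 bases after hmit-1.1 ends and lies on the same strand. It had 2.42, 8.95 and 2.95 CPM in 2KR, 3.24, 5.47 and 3.41 CPM in WT, and 3.13 and 4.06 CPM in N2. Replicate 2 was the highest library of each line, and the groups overlapped. Its log2 fold change was 0.23 ± 0.44 SE in 2KR over WT (edgeR adjusted p = 0.967), 0.17 ± 0.51 SE in WT over N2 (0.901) and 0.40 ± 0.51 SE in 2KR over N2 (0.65), and each sign turned without replicate 2 of the line or lines concerned. hmit-1.3 (WBGene00010811, chromosome III 3510924 to 3519607, minus strand) had 27.6 to 35.8 CPM in 2KR, 25.7 to 34.3 CPM in WT and 31.8 to 33.7 CPM in N2, with log2 fold changes of -0.01, -0.08 and -0.10 in 2KR over WT, WT over N2 and 2KR over N2. Its sign in 2KR over WT and in WT over N2 turned when single libraries were left out.

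Counted per kilobase of exon, hmit-1.1 supplied 7.5%, 8.48% and 6.15% of the transcripts of the 3 transporter genes in 2KR, 12.5%, 9.69% and 10.5% in WT, and 27.0% and 21.9% in N2. The share was lowest in 2KR, with no overlap between any of the groups, while hmit-1.3 supplied most of the family's transcripts in every library. In replicate 2, however, hmit-1.1 itself stood at 1.55 CPM per kb in 2KR and 1.54 CPM per kb in WT. There the shares differed through the sum of the 3 genes, at 18.3 CPM per kb in 2KR and 15.9 CPM per kb in WT, with hmit-1.2 at 3.97 CPM per kb in 2KR and 2.43 CPM per kb in WT. No test was made of the shares. Neighbouring paralogs can share reads where their sequences are alike, and the sources do not say how such reads were counted.

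**Figure D2:**
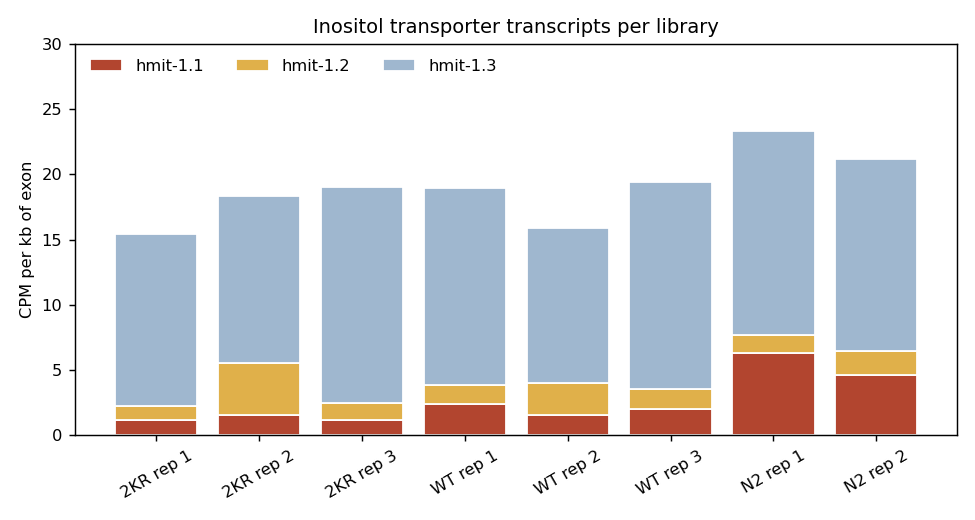
Levels of hmit-1.1, hmit-1.2 and hmit-1.3 in CPM per kilobase of exon, stacked for each library of 2KR, WT and N2 (linear axis from 0). The hmit-1.1 segment is largest in both N2 libraries, and the hmit-1.2 segment is largest in replicate 2 of 2KR.

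The glycerol genes gpdh-1 and gpdh-2 encode glycerol-3-phosphate dehydrogenases, which make the precursor of glycerol. gpdh-1 (WBGene00009824, chromosome I 14075837 to 14078211, plus strand), the form known to be induced by salt in the worm, had 2.61, 3.21 and 2.06 CPM in 2KR, 4.64, 1.16 and 5.2 CPM in WT, and 5.84 and 6.69 CPM in N2. All libraries of both lines were below N2, but WT replicate 2, with 31 reads, was far below the other WT libraries and the lowest of all 8. The log2 fold change was -0.49 ± 0.42 SE in 2KR over WT (edgeR adjusted p = 0.926), -0.77 ± 0.44 SE in WT over N2 (adjusted p = 0.381) and -1.25 ± 0.45 SE in 2KR over N2 (adjusted p = 0.117), and none was called.

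All 3 gpdh-1 results depended on WT replicate 2. 2KR over N2 holds no WT library, but the spread in its test was estimated over all groups. Without WT replicate 2, WT over N2 shrank to -0.35 (edgeR adjusted p = 0.449), 2KR over WT was -0.90 (adjusted p = 0.074), and 2KR over N2 passed (adjusted p = 0.00411). 2KR over N2 also passed without the filter on low counts (edgeR adjusted p = 0.0246). In a fit of 2KR and N2 alone it passed at -1.25 ± 0.20 SE (edgeR adjusted p = 0.00693), so its value stayed and its SE shrank. Without replicate 2 of both lines, a choice made after seeing the data, 2KR over WT was -1.07 (edgeR adjusted p = 0.0297). Of the settings run, this was the only one in which any of the 9 genes was called between the lines, and 126 of 14161 genes passed in it. In replicate 2 gpdh-1 was at its highest in 2KR and its lowest in WT. Leaving that replicate out could therefore only widen the difference, and no conclusion is drawn from the p of this setting. gpdh-1 touches gadr-6 on the opposite strand, whose level was 13.3 to 15.1 CPM in 2KR, 12.2 to 14.1 CPM in WT and 12.7 to 13.4 CPM in N2.

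gpdh-2 (WBGene00010778, chromosome III 9854074 to 9859183, minus strand) was the most abundant of the 9 genes per kilobase. It had 163, 159 and 159 CPM in 2KR, 173, 162 and 178 CPM in WT, and 178 CPM in each N2 library. The 2KR libraries lay below both N2 libraries by a small margin and touched the lowest WT library. The log2 fold change was -0.09 in 2KR over WT with a 95% interval of -0.20 to 0.01 (edgeR adjusted p = 0.802), -0.06 in WT over N2 (adjusted p = 0.586) and -0.15 in 2KR over N2 (adjusted p = 0.106). Paired by replicate number, gpdh-2 was lower in 2KR than in WT in every pair, a position whose share over all genes was not counted. With the replicate block the 95% interval of 2KR over WT was -0.18 to -0.008 (edgeR adjusted p = 0.343), which excluded 0 only before adjustment over all genes. gpdh-1 made up 1.5% to 2.32% of the transcripts of both genes per kilobase in 2KR, 0.835% to 3.32% in WT and 3.71% to 4.23% in N2.

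Trehalose is made by the trehalose 6-phosphate synthases tps-1 and tps-2 and by gob-1, the phosphatase that removes the phosphate. tps-1 (WBGene00006602, chromosome X 17467121 to 17474534, minus strand) had 21.0, 24.6 and 22.3 CPM in 2KR, 24.2, 27.6 and 25.3 CPM in WT, and 24.6 and 23.8 CPM in N2. tps-2 (WBGene00006603, chromosome II 14600902 to 14610554, plus strand) had 36.6, 39.4 and 37.6 CPM in 2KR, 47.2, 36.4 and 47.8 CPM in WT, and 43.3 and 41.0 CPM in N2. The ranges of 2KR and WT overlapped for both synthases. Paired by replicate number, tps-1 was lower in 2KR in 3 of 3 pairs, a position whose share over all genes was not counted. tps-2 was lower in replicates 1 and 3 and higher in replicate 2, where WT had its lowest level.

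The log2 fold change of 2KR over WT was -0.18 ± 0.082 SE for tps-1 (95% interval -0.36 to 0.0009, edgeR adjusted p = 0.759) and -0.21 ± 0.097 SE for tps-2 (95% interval -0.43 to 0.004, adjusted p = 0.766). With the replicate block the 95% interval was -0.34 to -0.03 for tps-1 (edgeR adjusted p = 0.296) and -0.39 to -0.02 for tps-2 (0.319), so both excluded 0 before adjustment over all genes. For tps-2 the value was -0.32 without WT replicate 2 (edgeR adjusted p = 0.0651) and -0.36 without replicate 2 of both lines (0.0654). Against N2 the values were 0.09 in WT (adjusted p = 0.67) and -0.10 in 2KR (0.548) for tps-1, and 0.06 in WT (0.827) and -0.16 in 2KR (0.404) for tps-2. tps-2 overlaps F19H8.2 on the opposite strand, which was called lower than N2 in both lines, at 3.07 to 4.23 CPM in 2KR, 2.62 to 3.26 CPM in WT and 5.89 to 5.98 CPM in N2. It also overlaps the coding gene arl-3 on the same strand. arl-3 was at 0.402 to 0.568 CPM in 2KR, 0.702 to 0.825 CPM in WT and 0.580 to 0.794 CPM in N2. Whether reads of these genes touch the tps-2 count was not tested.

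gob-1 (WBGene00001649, chromosome X 15493602 to 15497504, plus strand) had 40.7, 42.3 and 42.0 CPM in 2KR, 43.1, 38.6 and 43.9 CPM in WT, and 42.9 and 47.6 CPM in N2. Its level was the steadiest of the trehalose genes between the lines, with a log2 fold change of 2KR over WT of -0.008 and a 95% interval of -0.16 to 0.14 (edgeR adjusted p = 0.998). Against N2 it was -0.11 in WT (adjusted p = 0.47) and -0.12 in 2KR (adjusted p = 0.359).

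**Figure D3:**
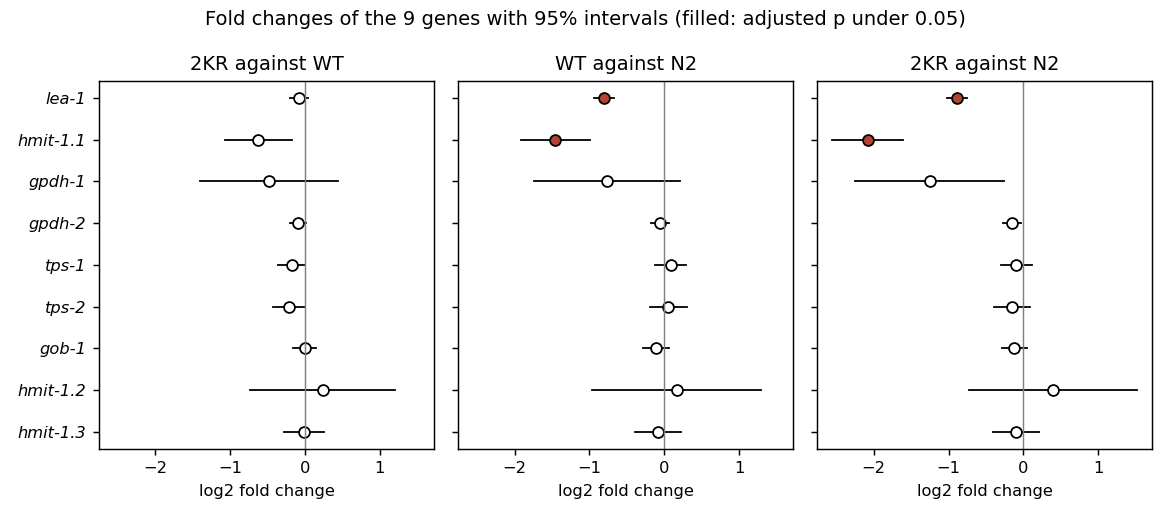
Log2 fold change of the 9 genes with 95% intervals in 2KR against WT, WT against N2 and 2KR against N2, from the fit of all genes. Filled points passed an adjusted p of 0.05, which only lea-1 and hmit-1.1 did, in both comparisons with N2.

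The ranges of the libraries did not overlap, with the line lower, for 4 of the 9 genes in WT against N2, where 19.2% of all genes tested were in that position. In 2KR against N2 it was 6 of the 9, against 21.9% of all genes, and in 2KR against WT 0 of the 9, against 5.11%. None of the 9 was higher without overlap, against 5.12% of all genes in 2KR against WT, 20.4% in WT against N2 and 21.8% in 2KR against N2. The spread within a group depended on the gene: in WT the SD of gpdh-1 was 59.6% of its mean, and that of gpdh-2 was 4.67%. In 2KR the widest was hmit-1.2, at 76.0%.

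Per kilobase of exon, the order of the 9 genes by their median over the 8 libraries was gpdh-2 at 109 CPM per kb, lea-1 at 43.4, gob-1 at 21.9, hmit-1.3 at 14.9, tps-2 at 10.5, tps-1 at 5.6, gpdh-1 at 3.00, hmit-1.1 at 1.80 and hmit-1.2 at 1.48 CPM per kb. The ranges over all libraries overlapped between hmit-1.3 and tps-2 and along the chain of tps-1, gpdh-1, hmit-1.1 and hmit-1.2, and did not overlap between the other neighbours in the order. This order pools groups that differ. In 2KR the means of gpdh-1, hmit-1.1 and hmit-1.2 were 2.01, 1.29 and 2.12 CPM per kb, and in WT 2.80, 1.99 and 1.79 CPM per kb. In N2 they were 4.79, 5.47 and 1.60 CPM per kb, so that hmit-1.1 there was level with tps-1, at 5.56 CPM per kb.

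The pathway around these genes was described with 9 lists of 55 genes, of which 49 were tested. In 2KR against WT edgeR called 0 of the 49, against 0.244% of all genes, and DESeq2 also called 0. At an unadjusted p under 0.05 it was 4 of the 49 (tre-3, hsp-12.6, nlp-29 and cnc-4) and 945 of all genes. With the replicate block 1.54% of all genes passed, and 3 of the 49: aqp-7 at a log2 fold change of 0.22 (edgeR adjusted p = 0.0404), nlp-29 at -0.85 (0.0219) and cnc-4 at -1.52 (0.0383). In WT against N2, 0 rose and 3 fell, against 1.86% and 2.21% of all genes. In 2KR against N2, 3 rose and 4 fell, against 3.76% and 4.0% of all genes. The median log2 fold change over the 49 genes was 0.03, 0.01 and 0.10 in 2KR over WT, WT over N2 and 2KR over N2, near that of all genes.

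The largest log2 fold changes among the called list genes were in the phosphatases of the glycerol step that follows the gpdh genes. pgph-1, pgph-2 and pgph-3 are homologs of the mammalian phosphatase that acts on glycerol 3-phosphate, and all 3 fell in both lines relative to N2. They lie together on chromosome V between 5752352 and 5771768. pgph-2, the most abundant of them, had 22.1, 23.7 and 21.6 CPM in 2KR, 27.5, 20.1 and 30.9 CPM in WT, and 55.8 and 65.3 CPM in N2. Every library of both lines was far below both N2 libraries, as it was for the other 2 genes.

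The log2 fold change of pgph-2 was -1.21 ± 0.15 SE in WT over N2 (edgeR quasi-likelihood adjusted p = 0.00171), which is 2.32-fold lower, and -1.43 ± 0.15 SE in 2KR over N2 (adjusted p = 0.00058), which is 2.69-fold lower. For pgph-1 it was -1.29 in WT (adjusted p = 0.00733) and -1.63 in 2KR (0.00194), and for pgph-3 -1.29 in WT (0.0218) and -1.77 in 2KR (0.0038). The 2KR calls of all 3 were kept in every alternative. The WT calls of pgph-1 and pgph-3 were lost without N2 replicate 1 (edgeR adjusted p = 0.0641 and 0.135) or N2 replicate 2 (0.0868 and 0.162). Between 2KR and WT the log2 fold changes were -0.34, -0.22 and -0.48 for pgph-1, pgph-2 and pgph-3, and none was called. Without replicate 2 of both lines, a choice made after seeing the data, pgph-1 was at -0.64 (edgeR adjusted p = 0.0435) and pgph-3 at -0.90 (0.00761). Both were among the 126 of 14161 genes that passed there. For both, replicate 2 held the highest 2KR and the lowest WT level, so leaving it out could only widen the difference. The 3 genes are related neighbours whose reads may be shared, so they are not independent of each other. Of the 14 genes tested within 50 kb of pgph-2, only pgph-1 and pgph-3 were called in these 2 comparisons.

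**Figure D4:**
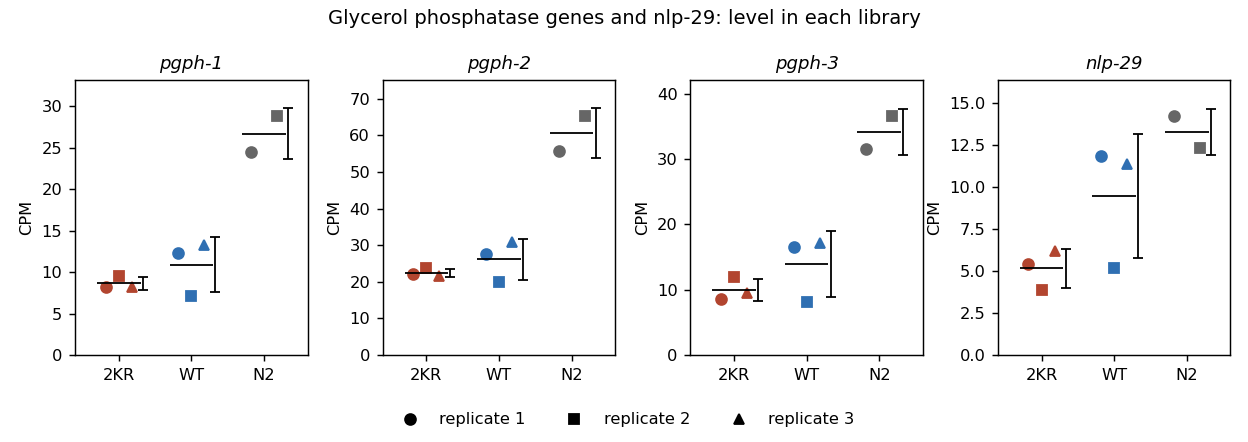
Level of pgph-1, pgph-2, pgph-3 and nlp-29 in CPM (linear axis from 0) in each library of 2KR, WT and N2, with the mean and SD. The pgph genes are below both N2 libraries in all 6 libraries of the lines, and all 4 genes are lowest among the WT libraries in replicate 2.

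Of the 11 aquaporin genes tested, 2 rose in 2KR against N2 and 0 fell, against 3.76% and 4.0% of all genes. aqp-7, an aquaglyceroporin that lets glycerol through, had 82.1, 107 and 88.2 CPM in 2KR, 76.6, 88.9 and 71.7 CPM in WT, and 58.0 and 67.3 CPM in N2 (log2 fold change of 2KR over N2 0.56 ± 0.13 SE, edgeR adjusted p = 0.0253). aqp-11 was higher by 0.33 on the log2 scale in 2KR than in N2 (edgeR adjusted p = 0.0317). Of the 7 osmotic regulators only osm-11, which encodes a secreted protein whose loss makes worms resistant to salt, was called, at 0.31 in 2KR over N2 (edgeR adjusted p = 0.0419). Each of these 3 calls was lost without N2 replicate 1 (edgeR adjusted p = 0.234, 0.238 and 0.247 for aqp-7, aqp-11 and osm-11) or N2 replicate 2 (0.0801, 0.136 and 0.175). The aqp-11 and osm-11 calls were also lost without 2KR replicate 2 (edgeR adjusted p = 0.0676 and 0.0951) or 2KR replicate 3 (0.0701 and 0.0898), and that of osm-11 without WT replicate 1 (0.0509), WT replicate 3 (0.0597) or replicate 2 of both lines (0.0825) and in a fit of 2KR and N2 alone (0.0524).

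Of 4 tested antimicrobial peptide genes that salt is known to induce in the epidermis, 1 was called by edgeR. It was nlp-29, lower in 2KR against N2, where 4.0% of all genes were called lower. DESeq2 called nlp-31 there as well, also lower (adjusted p = 0.0117). nlp-29 had 5.42, 3.87 and 6.18 CPM in 2KR, 11.8, 5.21 and 11.4 CPM in WT, and 14.3 and 12.3 CPM in N2. Relative to N2 it fell in 2KR by 1.36 ± 0.30 SE on the log2 scale (edgeR adjusted p = 0.0256), and that call was lost without N2 replicate 1 (0.214), N2 replicate 2 (0.105), 2KR replicate 1 (0.0564) or 2KR replicate 2 (0.0664). In 2KR over WT it was -0.88 ± 0.28 SE (edgeR adjusted p = 0.491), with the ranges overlapping through replicate 2 of WT. Without replicate 2 of both lines, a choice made after seeing the data, 126 of 14161 genes passed in 2KR against WT. Among them were nlp-29, nlp-31 and cnc-4, at -1.0, -0.81 and -1.90 (edgeR adjusted p = 0.00874, 0.0294 and 0.00761). In the same setting cnc-4 passed in WT against N2, at 1.13 (edgeR adjusted p = 0.0262), where 506 of 14161 genes passed.

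The other lists held 5 trehalases, 5 glycogen genes, 2 inositol genes, 6 furrow collagens and 6 desiccation genes, and edgeR's quasi-likelihood test called 0 of them in each comparison. At an unadjusted p under 0.05 the trehalases had 1, 0 and 0, the glycogen genes 0, 1 and 2, the inositol genes 0, 0 and 0, the furrow collagens 0, 0 and 1 and the desiccation genes 1, 3 and 2 in 2KR against WT, WT against N2 and 2KR against N2. Over all 14361 genes tested it was 945, 2750 and 3588 in the same order. DESeq2 called 1 of these genes, the glycogenin gene gyg-1, which was higher in WT than in N2 (log2 fold change 0.49, adjusted p = 0.0272) and in 2KR than in N2 (0.54, adjusted p = 0.0068). Of the trehalases, which split trehalose into glucose, tre-3 had a log2 fold change of 0.27 ± 0.089 SE in 2KR over WT (edgeR adjusted p = 0.521) and tre-5 of -0.65 ± 0.40 SE (adjusted p = 0.878). The glycogen synthase gene gsy-1 stood at -0.12 and the glycogen phosphorylase gene pygl-1 at -0.11 in the same comparison, with edgeR adjusted p = 0.825 and 0.904. For inos-1 and ttx-7, of inositol synthesis, the values were -0.05 and 0.02. Of the furrow collagen genes, whose loss is known to switch on gpdh-1 in C. elegans, dpy-2 was at 0.26 and dpy-8 at 0.26. hsp-12.6, a small heat shock protein gene and known DAF-16 target, had 0.292 to 0.391 CPM in 2KR, 0.664 to 1.05 CPM in WT and 0.312 to 0.467 CPM in N2. Its 2KR libraries did not overlap with those of WT, yet its log2 fold change, from 8 to 30 reads per library of these lines, of -1.19 ± 0.32 SE had an edgeR adjusted p of 0.33. glod-4, a glyoxalase gene, was at 0.07 in 2KR over WT.

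Replicate 2 of the lines differed from replicates 1 and 3 in several of these genes. Replicates 1 and 3 were not set against the others in this way. Over all genes, 2KR and WT libraries of the same number deviated together at r = 0.413, 0.398 and 0.296 for numbers 1, 2 and 3, so a shared deviation was not particular to replicate 2. In replicate 2 relative to the mean of replicates 1 and 3, hmit-1.2 was higher by 1.71 on the log2 scale in 2KR and by 0.70 in WT. tre-5 stood at -1.03 in 2KR and -1.55 in WT, and hsp-70 at -1.12 and -1.64 in the same lines. gpdh-1 did not go the same way in both lines, at 0.45 in 2KR and -1.99 in WT, and the pgph genes likewise were at 0.11 to 0.40 in 2KR and -1.05 to -0.54 in WT. Among all genes tested, 0.244% (35 genes) were lower and 0.272% (39 genes) higher by 1 or more in replicate 2 of both lines. By 0.5 or more, a cut that hmit-1.2 met in both lines, 1.37% (197 genes) were lower and 2.83% (406 genes) higher. The source of this spread was not tested.

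**Figure D5:**
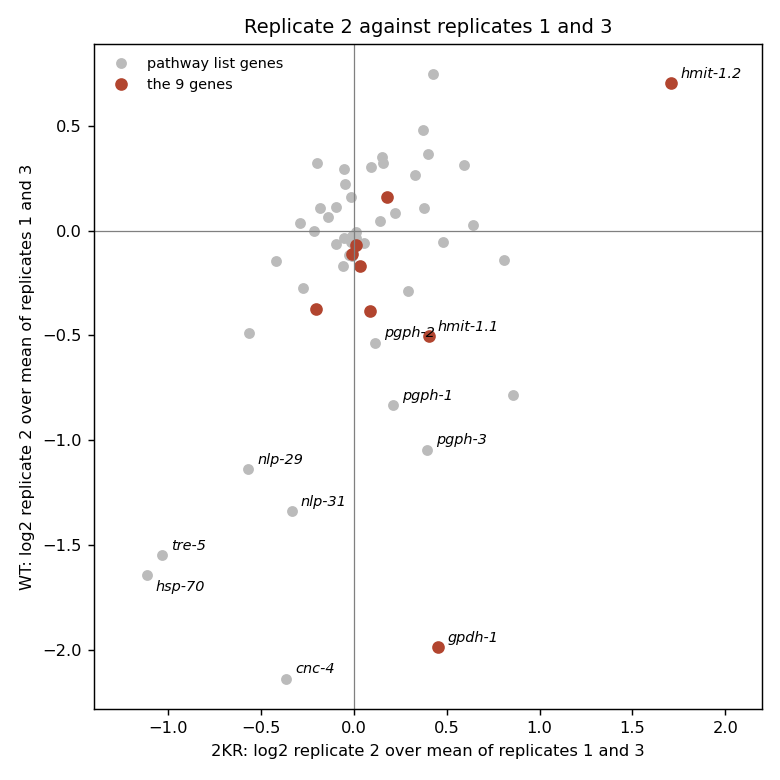
Log2 ratio of replicate 2 over the mean of replicates 1 and 3 in 2KR (horizontal axis) and in WT (vertical axis) for the 9 genes and the tested genes of the pathway lists. hmit-1.2 is at the upper right with 1.71 in 2KR and 0.70 in WT, and gpdh-1 is at 0.45 in 2KR and -1.99 in WT.

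Other genes followed the profiles of single members over the 8 libraries. Among the 8938 better expressed genes (mean log2 CPM of 2 or more), the closest to lea-1 by Pearson correlation of log2(CPM + 1) were R10E4.7 (r = 0.995), pmk-2 (0.989) and fbxc-51 (0.985). pmk-2, a p38 MAP kinase gene, averaged 6.35 CPM in 2KR, 6.50 CPM in WT and 30.8 CPM in N2. The closest to hmit-1.1 were mrpl-14 (r = 0.986), F34H10.3 (0.985) and sco-1 (0.984). The closest to gpdh-1 were gln-3 (r = 0.969), wee-1.3 (0.969) and F52C9.3 (0.958), and to tps-1 C18B2.4 (r = 0.934), E01G4.3 (0.934) and gpa-17 (0.93). All of these values come from the same 8 libraries and share their group differences and normalisation, so they describe these libraries and carry no p.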

How the data were processed

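The authors deposited raw counts per gene and library. Per the submitters' processing notes, Trimmomatic 0.32, TopHat2 2.1.0 and DESeq2 1.14.1 were used; no source names the counting program, genome build, annotation or use of strand, while the library kit, per the labels, was directional. Counts of the 8 libraries entered 1 fit in edgeR 4.0.16 (R 4.3.3; TMM, filterByExpr with a minimum count of 10, quasi-likelihood test, group as the only term), with Benjamini-Hochberg adjustment over the 14361 genes tested and a threshold of 0.05. The fit was tested on simulated data in which libraries varied independently, so deviations shared by same-numbered libraries were not covered. Each simulated gene took the spread fitted as a trend over level, so genes with a wider spread of their own were not covered either. Alternatives included DESeq2 1.42.0, no filter, a replicate block and each library left out. Same-numbered 2KR and WT libraries deviated together from their group means (r = 0.413, 0.398 and 0.296, other pairs -0.294 to -0.0942), so the numbers were taken to pair them. N2 shares only 2 numbers with the lines, and the series text speaks of triplicates where N2 has 2 libraries. Coordinates come from the Ensembl release 115 annotation by gene ID. The text names all 9 genes, daf-16 and rol-6, called list genes (or the 2 with the smallest p in 2KR against WT) and the 3 closest profiles of 4 members; others, such as overlapping genes, were named after their values were seen. The members and lists were chosen with earlier results of these data known.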

Additional observations from a re-analysis of the deposited data

How the results depend on the processing

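Over the 9 genes, 3 comparisons and all alternatives, 400 values kept their direction and side of the threshold, 22 turned sign, 9 passed newly and 1 was lost. Genes called in 2KR against WT numbered 95 with DESeq2, 99 without the filter, 22 with those groups alone, 221 with the replicate block, 319 with the block by the repeat names in the file headers, 286 with both groups alone and the block, and 126 without replicate 2 of both lines (chosen after seeing the data), when 1 of the 9 passed, gpdh-1. Leaving out 1 library gave 7 to 124 genes and 0 of the 9. In WT against N2 it was 911 without the filter, 1794 and 1455 with the blocks, 1236 with both groups alone and the block, and 101 to 616 genes with 1 to 2 of the 9 leaving out 1 library. In 2KR against N2 it was 2695 and 2457 with the blocks, 2780 with both groups alone and the block, and 162 to 1348 genes with 2 to 3 of the 9 leaving out 1 library. The block and its form with both groups alone called 4 of the 9 there, where 18.8% of all genes passed with the block, adding gpdh-1 (adjusted p = 0.0425 and 0.000379) and gpdh-2 (0.0274 and 0.0294). The header block called 2 of the 9 there (gpdh-1 0.0808, gpdh-2 0.0724): N2 replicate 2 bears in its header the repeat name of replicate 3 of the lines, so these gains depend on which number is right. Of the list genes outside the glycerol phosphatases, aquaporins, regulators and peptides, the replicate block called gyg-1 and dur-1 higher and hsp-70 lower in both lines than in N2, and tre-5 lower in 2KR. Of the 4 peptide genes it called 2 in 2KR against WT, 2 in WT against N2 and 3 in 2KR against N2, all lower. Among all genes the block called 1.54%, 12.5% and 18.8% in these 3 comparisons. The cause of these shifts was not tested. The list gene calls against N2 under the replicate block also rest on the label number of N2 replicate 2. hsp-70 and tre-5 were lowest in replicate 2 of each line, but higher in N2 replicate 2 than in N2 replicate 1. For hsp-70, replicate 2 had 2.85 CPM in 2KR, 2.02 CPM in WT and 9.77 CPM in N2. gyg-1 and dur-1 were instead highest in replicate 2 of all 3 groups. Calls of the list genes with the header block are not given here. Sign changes concerned values near 0 or hmit-1.2, none of them called. Leaving out 1 library, the log2 fold change of 2KR over WT ran between -0.0575 and 0.0321 for gob-1, -0.59 and 0.563 for hmit-1.2, and -0.142 and 0.0714 for hmit-1.3. In WT over N2 it ran between -0.0104 and 0.174 for tps-2, -0.113 and 0.367 for hmit-1.2, and -0.164 and 0.032 for hmit-1.3, and in 2KR over N2 between -0.424 and 0.73 for hmit-1.2. Without replicate 2 of both lines hmit-1.2 was at -0.312, -0.113 and -0.424 in 2KR over WT, WT over N2 and 2KR over N2, and hmit-1.3 at 0.0327 in WT over N2. With the block by header names hmit-1.2 was at -0.323 in WT and -0.195 in 2KR over N2 and hmit-1.3 at 0.00362 in WT over N2, and with WT and N2 alone and the block tps-2 was at -0.0199. The low counts of gpdh-1, hmit-1.1 and hmit-1.2 and the 2 N2 libraries limit what can be detected.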
